A study of Mus musculus with 3 samples.

Results

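The RUNX, MYB and ETS factors described here are 8 genes, Runx1, Runx2, Runx3, Cbfb, Myb, Erg, Fli1 and Etv6, of 32285 genes in the files. They were taken by symbol, and their unique molecular identifiers (UMIs, 1 per captured RNA molecule) were summed per library and per class of cells. RUNX proteins bind DNA through a shared runt domain and work as a pair with CBFB, which does not bind DNA itself and strengthens the binding of its partner. RUNX1 is needed for the emergence of blood stem cells from endothelium in the embryo and later for platelet and lymphoid development, RUNX2 is best known as the master regulator of bone formation, and RUNX3 acts in T and NK cell development. MYB is a DNA-binding activator that keeps progenitors immature and dividing, and its level falls as red cells mature. ERG and FLI1 are closely related ETS activators of stem cells and megakaryocytes, and ETV6 is an ETS repressor required by adult stem cells. RUNX1, CBFB, ERG, FLI1 and ETV6 are all partners in gene fusions of human leukemias, and ERG and FLI1 also in those of solid tumors.

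The cells were lineage-negative, KIT-positive progenitors sorted from the livers of mice on postnatal day 0, an organ that still makes blood at birth. Each cell gave a profile of its RNA and of 10 surface proteins, read through antibody tags (CITE-seq). There were 3 groups with 1 library each: mice with the leukemia fusion MLL::ENL in which Skida1 was deleted (the Skida1-deleted library), mice with MLL::ENL and no Skida1 deletion (MLL-ENL), and Control mice. The labels do not give the promoter or driver of the fusion, the way Skida1 was deleted, the strain, the sex or the number of animals in a library. With 1 library a group no test between groups was possible, no p-value is given, and no difference has a replicate check. Brackets hold 95% intervals that cover counting error only, not the spread between animals, and levels are given in CPM, UMIs scaled to the total gene UMIs of the same cells. The 3′ counts give 1 row per gene, so its promoters and isoforms were not told apart, and levels are compared between libraries and classes and not between genes.

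The 3 Runx genes are paralogs on different chromosomes, Runx1 at chr16:92601466-92826074, Runx2 at chr17:44495987-44814797 and Runx3 at chr4:135120645-135177990 in GRCm38.p6, the assembly that mm10 names. The other genes lie at chr8:105170674-105217989 (Cbfb), chr10:21124930-21160984 (Myb), chr16:95359169-95586600 (Erg), chr9:32422204-32543432 (Fli1) and chr6:134035700-134270158 (Etv6). RefSeq promoters of 300 bases in the same build, running from 250 bases before to 50 bases after an annotated start, were at hand for 7 of the 8 genes, without an entry for Fli1. These 3 promoters are printed because the same doubled RUNX core motif lies in a promoter of each Runx gene, at chr16:92826025-92826324 on the minus strand for Runx1, chr17:44814578-44814877 on the minus strand for Runx2 and chr4:135120395-135120694 on the plus strand for Runx3. They run 5′ to 3′ along the gene's strand, and capitals mark ACCACA, the RUNX core motif searched on both strands.
Runx1 promoter: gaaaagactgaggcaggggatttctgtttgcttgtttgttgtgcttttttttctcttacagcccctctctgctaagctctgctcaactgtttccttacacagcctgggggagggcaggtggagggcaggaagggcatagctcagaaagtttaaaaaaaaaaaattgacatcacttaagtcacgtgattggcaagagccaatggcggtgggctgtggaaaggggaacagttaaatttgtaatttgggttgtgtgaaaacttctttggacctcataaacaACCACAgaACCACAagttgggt
Runx2 promoter: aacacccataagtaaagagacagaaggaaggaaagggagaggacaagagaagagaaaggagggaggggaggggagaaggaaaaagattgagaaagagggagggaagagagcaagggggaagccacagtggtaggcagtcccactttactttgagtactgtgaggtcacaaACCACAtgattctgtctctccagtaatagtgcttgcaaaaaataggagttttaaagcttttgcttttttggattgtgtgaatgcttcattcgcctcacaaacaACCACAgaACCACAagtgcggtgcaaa
Runx3 promoter: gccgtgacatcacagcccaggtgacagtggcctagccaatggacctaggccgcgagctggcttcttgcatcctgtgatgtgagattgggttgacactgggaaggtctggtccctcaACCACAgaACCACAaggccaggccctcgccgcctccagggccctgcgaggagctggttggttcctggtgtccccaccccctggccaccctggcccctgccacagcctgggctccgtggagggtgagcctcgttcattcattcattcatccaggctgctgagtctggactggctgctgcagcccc
In all 3 promoters the motif pair ACCACAGAACCACA stands inside a shared run of 18 bases, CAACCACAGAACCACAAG. The run begins 27 bases after the annotated start in Runx1 and 22 bases after it in Runx2, counting the start as base 1, and 136 bases before it in Runx3. The pair, chosen after these promoters were read and searched on both strands, was found in 4 of 32851 RefSeq promoters (0.0122%), those of Runx1, Runx2, Runx3 and the gene model Gm16225. The single motif ACCACA or its complement occurred in 5506 of these promoters (16.8%). The second, downstream promoters of Runx1 (chr16:92697280-92697579, minus strand) and Runx3 (chr4:135152295-135152594, plus strand) held 0 matches and were richer in G and C, at 69% and 77.3%, against 45% and 63.7% in their first promoters. The ETS core CCGGAA, searched on both strands, is in 14.9% of all promoters and matched once among those of these genes, in the second Runx1 promoter. The MYB motif AACNGTT, found in 4.45% of all promoters, matched 2 times in the first Runx1 promoter. The matches describe letters only, and binding was not measured.

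After filtering and doublet removal the Skida1-deleted, MLL-ENL and Control libraries held 9168, 10154 and 5510 cells, with median depths of 17025.5, 14685.5 and 28501 UMIs per cell. Cells were clustered without these genes and named from marker lists. HSPC-like cells (hematopoietic stem and progenitor) numbered 2136, 1570 and 1181 in the Skida1-deleted, MLL-ENL and Control libraries, granulocyte progenitor-like cells 520, 461 and 171, megakaryocyte-like cells 868, 522 and 372, erythroid-like cells 4580, 6602 and 3374 and basophil-mast-like cells 255, 297 and 144. The sort marker KIT (CD117) had median tag counts of 349, 358 and 338 per HSPC-like cell in these libraries, and the 7 hepatocyte markers summed to 14.7, 11.8 and 8.56 CPM. The libraries differed by more than genotype. Clusters 1 and 11 held most HSPC-like cells with the fusion, and cluster 9 held 1161 of the 1181 HSPC-like cells of Control. Erythroid-like cells were parted in the same way: the 5 clusters made mostly of Control cells held 12 of 4580 cells of the Skida1-deleted library, 36 of 6602 cells of MLL-ENL and 3319 of 3374 cells of Control. The Y-linked gene Ddx3y had 78.2, 0 and 0 CPM and the female transcript Xist 4.27, 1787 and 948 CPM among HSPC-like cells of the Skida1-deleted, MLL-ENL and Control libraries, so sex and genotype cannot be told apart where the Skida1-deleted library is compared with MLL-ENL or Control. Skida1 had 40, 308 and 20 UMIs there (1.88, 17.5 and 1.01 CPM), low in the deleted library, although whether the 3′ tags lie inside the deleted part is not given. Mitotic (G2M) genes were lower in MLL-ENL than in Control by 1.5-fold or more for 18 of 20 in HSPC-like cells, 20 of 20 in granulocyte progenitor-like, 14 of 20 in megakaryocyte-like, 6 of 20 in erythroid-like and 19 of 20 in basophil-mast-like cells, and the part of cell division in the differences between these libraries was not tested beyond restricting the cells to those called G1. The pairs of libraries shared 33 barcodes (Skida1-deleted and MLL-ENL), 17 (MLL-ENL and Control) and 20 (Skida1-deleted and Control).

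The first comparison set MLL-ENL against Control. Runx2 and Runx3 were higher in MLL-ENL in every class of progenitors where they were measured. For Runx3 in basophil-mast-like and erythroid-like cells this did not hold under every alternative setting. Myb was lower in 4 of the 5 classes, most of all in megakaryocyte-like and erythroid-like cells, and Cbfb was lower in every class. Runx1 was nearly level in HSPC-like cells and higher in granulocyte progenitor-like and erythroid-like cells. Fli1 and Etv6 stayed within 1.5-fold in every class compared, though not under every alternative setting. In HSPC-like cells 2 of the 8 genes, Runx2 and Runx3, were higher by 1.5-fold or more and 0 were lower, beside 24.3% of all measured genes past that fold in either direction, 8.84% higher and 15.5% lower. Their median log2 ratio was -0.00, against -0.10 over all measured genes.

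In HSPC-like cells Runx2, the bone regulator, had 111 CPM in the Skida1-deleted library, 105 CPM in MLL-ENL and 54.8 CPM in Control, from 2373, 1846 and 1088 UMIs. Both fusion libraries stood above Control, and MLL-ENL exceeded Control 1.92 [1.78–2.07]-fold. Runx3, the T and NK cell factor, had 132 CPM in the Skida1-deleted library, 108 CPM in MLL-ENL and 51.8 CPM in Control, from 2812, 1890 and 1030 UMIs, with MLL-ENL 2.08 [1.92–2.24]-fold above Control. Runx1, the stem cell factor of the family, had 172 CPM in the Skida1-deleted library, 183 CPM in MLL-ENL and 199 CPM in Control, and its ratio of MLL-ENL over Control was 0.918 [0.876–0.962]. Cbfb, the common partner subunit, was lower in both fusion libraries with 27.4 CPM in the Skida1-deleted library, 30.4 CPM in MLL-ENL and 43.7 CPM in Control, 1.44 [1.29–1.61] times lower in MLL-ENL than in Control. Runx2 and Runx3 thus lay above Control, and Runx1 and the partner Cbfb below it, Runx1 only slightly. Under 13 alternatives the ratio of MLL-ENL over Control in HSPC-like cells was 1.59 to 2.15 for Runx2, 1.9 to 2.43 for Runx3, 0.867 to 1.05 for Runx1 and 0.668 to 0.768 for Cbfb.

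Fusion cells of each HSPC-like cluster had more Runx2 and Runx3 than the Control cells of cluster 9, which were nearly all of the HSPC-like cells of Control. In cluster 1, which held Hlf and Mecom among its leading genes, Runx2 had 131 CPM in the Skida1-deleted library and 119 CPM in MLL-ENL, and in cluster 11 it had 89.8 and 83.8 CPM. Control cells of cluster 9 had 55.1 CPM. The few fusion cells inside that Control cluster, 20 of the Skida1-deleted library and 47 of MLL-ENL, had 97.1 [57.6–153] and 135 [106–170] CPM, and so lay with their own libraries and above their Control neighbours. Runx3 did the same, with 139 and 113 CPM in cluster 1, 124 and 101 CPM in cluster 11, and 178 [123–250], 104 [78.2–134] and 51.7 CPM in cluster 9 for the Skida1-deleted, MLL-ENL and Control cells. Clusters 1 and 11 held few Control cells: the 13 in cluster 1 had 41.8 [13.6–97.6] CPM of Runx2 and 125 [70.2–207] CPM of Runx3, and the 7 in cluster 11 had 20.5 [4.22–59.8] and 6.82 [0.173–38] CPM. In cluster 1 the Runx3 level of Control thus could not be told apart from that of the fusion cells. With every cell thinned to 3000 UMIs, Runx2 was detected in 29%, 29.1% and 16% of HSPC-like cells of the Skida1-deleted, MLL-ENL and Control libraries, against 0.533%, 1.45% and 0.27% of erythroid-like cells, a class with little Runx2. Without thinning the HSPC-like shares were 63.1%, 63.7% and 53.1% at median depths of 8544, 9340 and 15161 UMIs, and those of erythroid-like cells 2.93%, 4.62% and 2.4% at 27383, 22940 and 35658 UMIs. Thinned shares for Runx3 were 32.3%, 26% and 15% of HSPC-like cells. Of the 327 Runx2 UMIs in erythroid-like cells of MLL-ENL, 176 came from the low-depth cluster 2, so these shares are not a pure background. Runx3, Cbfb, Myb and Etv6 had 5 CPM or more in every class compared, so no class gives a background share for them. Lymphoid progenitor markers, a list of 8 genes, summed to 272, 302 and 199 CPM among HSPC-like cells of the Skida1-deleted, MLL-ENL and Control libraries, with Dntt at 0 in the Skida1-deleted library, and the HSPC markers to 1539, 1627 and 2283 CPM. The part of these shifts in the Runx2 and Runx3 ratios was not tested.

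**Figure D1:**
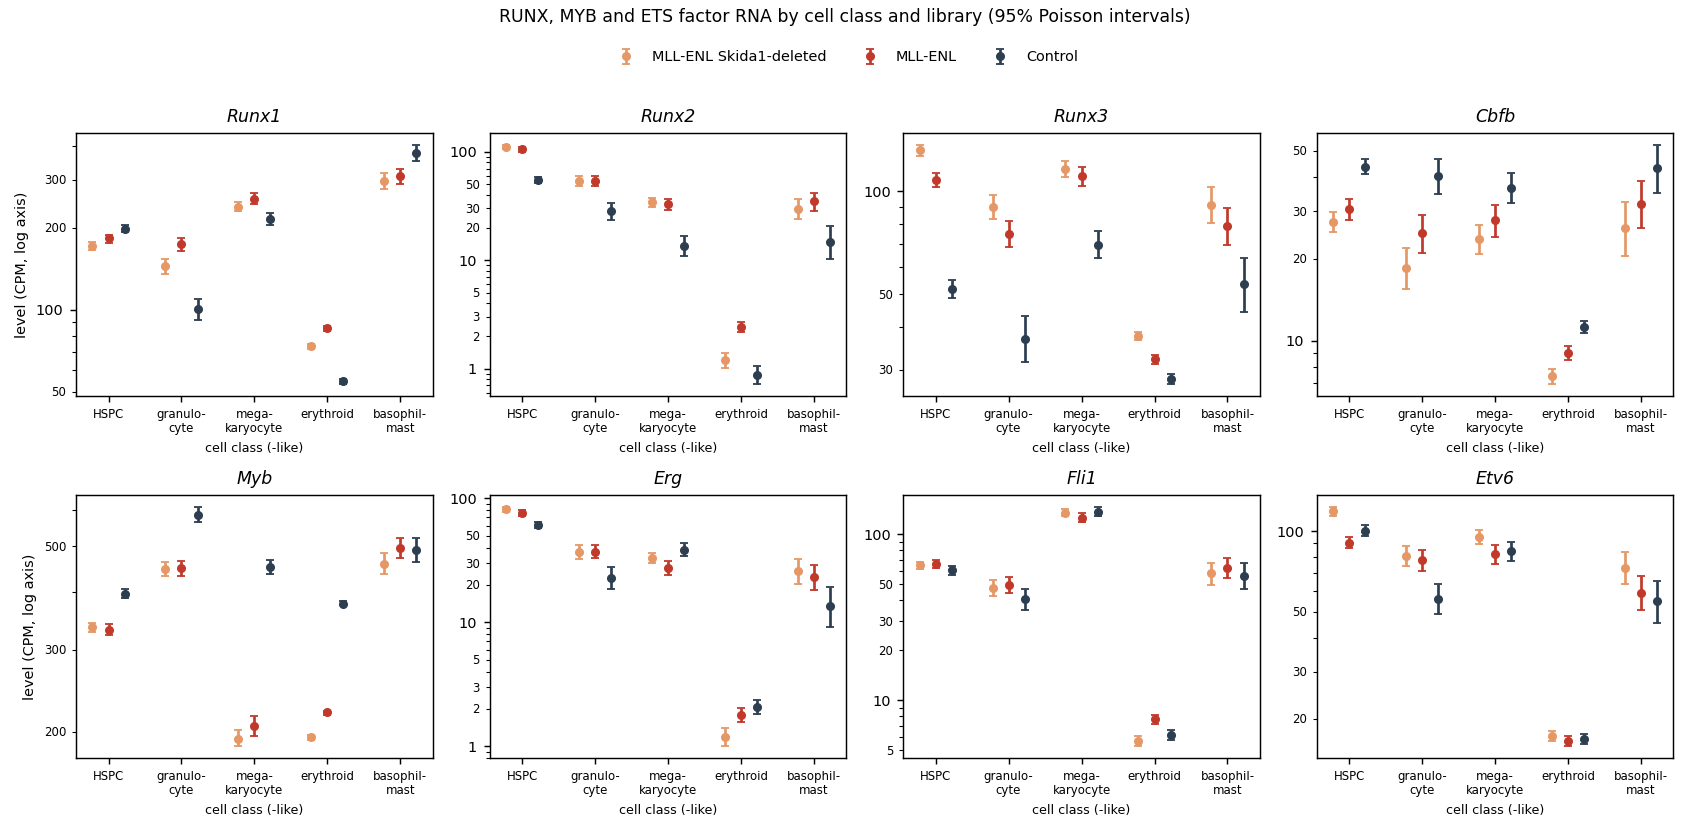
Level of each gene in CPM (log axis) in 5 cell classes, for the Skida1-deleted, MLL-ENL and Control libraries. Points are sums over the cells of 1 library and bars are 95% Poisson intervals. Runx2 and Runx3 lie higher in both fusion libraries than in Control in all 5 classes, while Cbfb lies lower.

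In the more mature classes the same 2 paralogs were higher in MLL-ENL. In granulocyte progenitor-like cells Runx2 had 53.9 CPM in MLL-ENL, against 28.4 CPM in Control (1.9 [1.55–2.35]-fold), and Runx3 had 75.1 CPM in MLL-ENL, against 37 CPM in Control (2.03 [1.7–2.44]-fold). Runx1 joined them there, with 174 CPM in MLL-ENL, against 101 CPM in Control, a ratio of 1.72 [1.54–1.93], and so did Erg. These 4 genes were past 1.5-fold and higher, 1 (Cbfb) was lower, beside 11.4% higher and 19.3% lower among all measured genes, 30.7% in all. The median log2 ratio of the 8 genes was 0.57 in this class, against -0.14 over all genes. The granulocyte markers used to name the class, 12 genes, summed to 12973, 10276 and 23878 CPM in the Skida1-deleted, MLL-ENL and Control libraries, so these markers were lower in both fusion libraries. The Runx1 ratio was 0.953 when the clusters were made at resolution 0.5, and the ratios of Runx1, Erg and Cbfb depended on how this small class was drawn, whereas Runx3 stayed at 1.54 to 2.29 under 11 alternatives and Runx2 at 1.27 to 2.84. Under the strict cell filter Erg was 0.699 and Cbfb 1.01.

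In megakaryocyte-like cells Runx2 had 32.7 CPM in MLL-ENL, against 13.5 CPM in Control (2.42 [1.9–3.1]-fold), its highest ratio among the 4 classes where it was measured, and Runx3 had 111 CPM in MLL-ENL, against 69.7 CPM in Control (1.59 [1.42–1.78]-fold). Runx1, a regulator of platelet production, had 256 CPM in MLL-ENL, against 216 CPM in Control, a ratio of 1.19 [1.11–1.27]. Under 12 alternatives Runx2 was at 1.7 to 3.13 and Runx3 at 1.29 to 1.78. Past 1.5-fold were 2 genes higher (Runx2, Runx3) and 1 lower (Myb), beside 6.75% higher and 17.4% lower among all genes, 24.2% in all. In basophil-mast-like cells Runx2 had 34.9 CPM in MLL-ENL, against 14.8 CPM in Control (2.36 [1.58–3.59]-fold, from 111 and 33 UMIs). Runx3 had 78.9 CPM there in MLL-ENL, against 53.4 CPM in Control (1.48 [1.18–1.85]). Under 11 alternatives Runx2 was at 1.16 to 4.55 and Runx3 at 0.967 to 1.64. Runx1 went the other way in this class, with 309 CPM in MLL-ENL, against 378 CPM in Control, a ratio of 0.818 [0.746–0.898]. There 2 genes, Runx2 and Erg, were past 1.5-fold, both higher (Erg was 0.666 with classes from marker scores per cell), beside 9.52% higher and 18.4% lower among all genes, 27.9% in all. In erythroid-like cells Runx2 was near its floor with 2.44 CPM in MLL-ENL, against 0.877 CPM in Control, under the 5 CPM needed to count as measured. Runx3 had 32.2 CPM there in MLL-ENL, against 28.1 CPM in Control, a ratio of 1.14 [1.09–1.2]. Under 12 alternatives the Runx3 ratio was 0.907 to 1.29. Runx1 was higher in this class, with 73.6 CPM in the Skida1-deleted library, 85.5 CPM in MLL-ENL and 54.7 CPM in Control, 1.56 [1.52–1.61]-fold in MLL-ENL over Control. That ratio was 1.17 to 1.71 under 12 alternatives and reached 1.5-fold under 8 of them. Over erythroid-like clusters with at least 50 cells of a library, which differed between the fusion libraries and Control, Runx1 ranged from 56.6 to 112 CPM in the Skida1-deleted library, from 60.5 to 118 CPM in MLL-ENL and from 38.9 to 93 CPM in Control, so the ranges overlapped. Of the 6 genes measured in erythroid-like cells 1 (Runx1) was higher and 1 (Myb) lower by 1.5-fold or more, beside 5.23% higher and 12.2% lower among all genes, 17.5% in all.

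Cbfb, the partner subunit, was lower in MLL-ENL than in Control in all 5 classes, by less than 1.5-fold except in granulocyte progenitor-like cells. There it had 24.8 CPM in MLL-ENL, against 40.4 CPM in Control, 1.63 [1.31–2.03] times lower. The levels in MLL-ENL and Control were 27.7 and 36.5 CPM in megakaryocyte-like cells, 9.02 and 11.2 CPM in erythroid-like cells and 31.8 and 43.1 CPM in basophil-mast-like cells. All 5 intervals of the Cbfb ratio lay under 1. Under alternatives the ratio was 0.634 to 1.05 in megakaryocyte-like and 0.55 to 1.01 in granulocyte progenitor-like cells. Among erythroid-like cells with more of the red cell gene Car2, Cbfb was not lower, as given below. With cells thinned to 3000 UMIs, Cbfb was detected in 7.18%, 7.52% and 10.5% of HSPC-like cells of the Skida1-deleted, MLL-ENL and Control libraries.

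**Figure D2:**
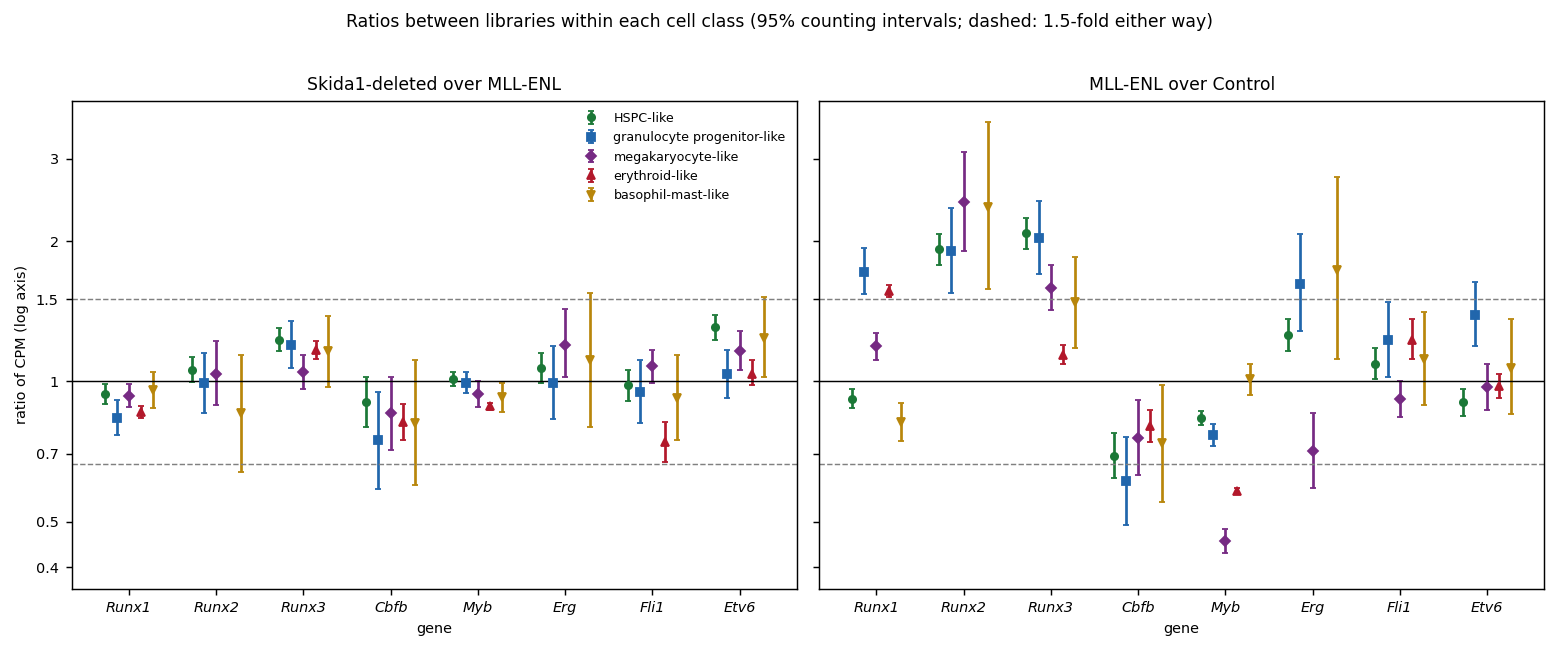
Ratio of CPM (log axis) for each gene and cell class, Skida1-deleted over MLL-ENL on the left and MLL-ENL over Control on the right, with 95% counting intervals. Gene and class pairs under 5 CPM in both libraries are not drawn, and dashed lines mark 1.5-fold either way. In the left panel every point lies between the dashed lines, and in the right panel Runx2 and Runx3 lie high and Myb in megakaryocyte-like cells lies lowest at 0.456.

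Myb, the progenitor activator, was lower in MLL-ENL than in Control in 4 of the 5 classes, with ratios from 0.456 to 1.01 over the classes. In megakaryocyte-like cells it had 193 CPM in the Skida1-deleted library, 206 CPM in MLL-ENL and 451 CPM in Control, 2.19 [2.07–2.33] times lower in MLL-ENL than in Control. In erythroid-like cells it had 195 CPM in the Skida1-deleted library, 220 CPM in MLL-ENL and 377 CPM in Control, 1.72 [1.69–1.74] times lower. Both fusion libraries lay well under Control in these 2 classes. The erythroid-like cells of the fusion libraries and of Control lay in different clusters, and Myb varied between these, from 123 to 290 CPM in the Skida1-deleted library, from 117 to 309 CPM in MLL-ENL and from 169 to 454 CPM in Control over clusters with at least 50 cells of a library, so the ranges overlapped. The few cells in clusters made mostly of the other kind had 16.7 [4.56–42.8] CPM in the Skida1-deleted library (12 cells), 105 [85–128] CPM in MLL-ENL (36 cells) and 374 [321–433] CPM in Control (55 cells). In granulocyte progenitor-like cells Myb had 449 CPM in MLL-ENL, against 585 CPM in Control (ratio 0.768 [0.728–0.81]) and in HSPC-like cells 331 CPM in MLL-ENL, against 396 CPM in Control (ratio 0.836 [0.808–0.865]), differences under 1.5-fold. In basophil-mast-like cells the 2 libraries were level, with 496 CPM in MLL-ENL, against 491 CPM in Control (ratio 1.01 [0.935–1.09]). Thinned to 3000 UMIs, Myb was detected in 38.8%, 42.7% and 62.4% of megakaryocyte-like and 41.2%, 46.6% and 63.1% of erythroid-like cells of the Skida1-deleted, MLL-ENL and Control libraries, and in 55.9%, 57.8% and 66.1% of HSPC-like cells. The erythroid-like ratio was 0.465 to 0.638 under 12 alternatives, and the megakaryocyte-like ratio 0.352 to 0.737, under 1.5-fold where the clusters were made at resolution 0.5 (0.737) or 2.0 (0.669). The 11 megakaryocyte markers summed to 2443, 2838 and 1586 CPM in the Skida1-deleted, MLL-ENL and Control libraries, higher with the fusion. The 15 erythroid markers summed to 3281, 3609 and 5037 CPM in erythroid-like cells, lower with the fusion. Their part in the Myb ratios was not tested, since the Car2 bins of erythroid-like cells given below match cells on Car2 alone.

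Of the ETS genes, Erg, a stem cell factor, was higher in MLL-ENL than in Control in HSPC-like cells, with 81.3 CPM in the Skida1-deleted library, 76 CPM in MLL-ENL and 60.5 CPM in Control and a ratio of 1.26 [1.16–1.36] for MLL-ENL over Control. It was higher in granulocyte progenitor-like cells with 37.2 CPM in MLL-ENL, against 22.9 CPM in Control (1.62 [1.28–2.07]-fold) and in basophil-mast-like cells with 23.3 CPM in MLL-ENL, against 13.5 CPM in Control (1.73 [1.12–2.74]-fold, from 74 and 30 UMIs). In megakaryocyte-like cells it was lower, with 27.4 CPM in MLL-ENL, against 38.6 CPM in Control, 1.41 [1.17–1.69] times. Fli1, the megakaryocyte activator, differed little, with 66.1 CPM in MLL-ENL, against 60.6 CPM in Control in HSPC-like cells (ratio 1.09 [1.01–1.18]) and 126 CPM in MLL-ENL, against 137 CPM in Control in megakaryocyte-like cells (ratio 0.916 [0.838–1]). Under 12 alternatives the Fli1 ratio was 0.531 to 1.45 in megakaryocyte-like and 0.763 to 1.72 in erythroid-like cells. Etv6, the repressor, had 90.6 CPM in MLL-ENL, against 100 CPM in Control in HSPC-like cells (ratio 0.903 [0.845–0.965]), and its highest ratio was in granulocyte progenitor-like cells, 1.39 [1.19–1.63]. Under alternatives the Etv6 ratio was 1.05 to 1.75 in granulocyte progenitor-like and 0.613 to 1.22 in erythroid-like cells. In megakaryocyte-like cells, where ERG and FLI1 work side by side, the ratios of MLL-ENL over Control were 0.711 for Erg, 0.916 for Fli1 and 0.972 for Etv6.

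The second comparison set the Skida1-deleted library against MLL-ENL. Each of the 8 genes had a similar level in these 2 libraries: 0 of 8 (0 of 6 measured in erythroid-like cells) were past 1.5-fold in each of the 5 classes, beside 3.19% of all measured genes past it in HSPC-like cells, 6.4% in granulocyte progenitor-like, 4.34% in megakaryocyte-like, 2.14% in erythroid-like and 12% in basophil-mast-like cells. The median log2 ratios of the measured genes among the 8 were 0.05, -0.01, 0.06, -0.19 and -0.08 in those classes, against -0.02, -0.05, -0.02, -0.04 and -0.03 over all measured genes. Runx2 and Erg, under 5 CPM in erythroid-like cells and so not counted there, were lower in the Skida1-deleted library. Their ratios were 0.493 [0.403–0.6] from 150 and 327 UMIs and 0.661 [0.534–0.815] from 147 and 239 UMIs. Of those UMIs of MLL-ENL, the low-depth cluster 2 held 176 of Runx2 and 125 of Erg. Smaller differences had a steady direction. Runx3 was higher in the Skida1-deleted library in all 5 classes, with 132 CPM in the Skida1-deleted library, against 108 CPM in MLL-ENL in HSPC-like cells (ratio 1.23 [1.16–1.3]), and 1.2 [1.07–1.35] in granulocyte progenitor-like, 1.05 [0.963–1.14] in megakaryocyte-like, 1.17 [1.12–1.22] in erythroid-like and 1.16 [0.971–1.38] in basophil-mast-like cells. The intervals in megakaryocyte-like and basophil-mast-like cells held 1. Etv6 was higher in HSPC-like cells with 119 CPM in the Skida1-deleted library, against 90.6 CPM in MLL-ENL, the largest ratio of any of these genes in that class at 1.31 [1.23–1.39]. With thinning, Etv6 was detected in 32.1%, 23.5% and 26.4% of HSPC-like cells of the Skida1-deleted, MLL-ENL and Control libraries. Under 13 alternatives the ratios in HSPC-like cells were 1.2 to 1.29 for Runx3 and 1.2 to 1.47 for Etv6.

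Runx2 and Myb did not differ detectably between the fusion libraries in HSPC-like cells, where the Skida1-deleted over MLL-ENL ratios were 1.06 [0.997–1.13] for Runx2 and 1.01 [0.978–1.05] for Myb. Runx1 was a little lower in the Skida1-deleted library in each class, with ratios of 0.94 [0.896–0.986] in HSPC-like and 0.837 [0.768–0.912] in granulocyte progenitor-like cells. Its interval held 1 in basophil-mast-like cells (0.96 [0.876–1.05]). In erythroid-like cells Runx1 had 73.6 CPM in the Skida1-deleted library, against 85.5 CPM in MLL-ENL (0.86 [0.837–0.884]). Myb had 195 CPM there in the Skida1-deleted library, against 220 CPM in MLL-ENL (0.885 [0.87–0.9]). Fli1 had 5.7 CPM there in the Skida1-deleted library, against 7.69 CPM in MLL-ENL (0.742 [0.673–0.817]), a ratio of 0.509 to 0.985 under 12 alternatives. Of the 1030 Fli1 UMIs of MLL-ENL in this class, 324 came from the low-depth cluster 2 (28.2 CPM). That cluster held 2499 cells of MLL-ENL and 70 of the Skida1-deleted library. Cbfb was lower in all 5 classes, though its interval held 1 in HSPC-like (0.902 [0.8–1.02]), megakaryocyte-like (0.854 [0.713–1.02]) and basophil-mast-like cells (0.815 [0.599–1.11]). Erg had a ratio of 1.07 [0.995–1.15] in HSPC-like and 1.2 [1.02–1.43] in megakaryocyte-like cells. Since the 2 comparisons share the MLL-ENL library, a value that is high in that library by itself lowers one ratio and raises the other. The Skida1-deleted over Control ratios, which share libraries with both, were, for Runx2 and Runx3 in HSPC-like cells, 2.04 [1.89–2.19] and 2.55 [2.37–2.74].

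Within a library the 8 genes separated the classes in an order that was mostly shared by all 3 libraries. Runx1 was highest in basophil-mast-like cells (297, 309 and 378 CPM in the Skida1-deleted, MLL-ENL and Control libraries) and lowest in erythroid-like cells, with top over bottom ratios of 4.03, 3.61 and 6.91. Between them came megakaryocyte-like and then HSPC-like and granulocyte progenitor-like cells, and in MLL-ENL the last 2 did not differ beyond counting error. Runx2 was highest in HSPC-like cells, followed by granulocyte progenitor-like cells (53.4, 53.9 and 28.4 CPM). Megakaryocyte-like and basophil-mast-like cells were not told apart in Runx2 by their intervals in any library, and erythroid-like cells came last, 92.6, 43.1 and 62.4 times under HSPC-like cells. Runx3 was spread more evenly, 3.51, 3.44 and 2.48 times from top to bottom. Its highest class was HSPC-like in the Skida1-deleted library and megakaryocyte-like in MLL-ENL and Control, and in MLL-ENL those 2 classes did not differ beyond counting error. Cbfb was lowest in erythroid-like cells, 3.71, 3.52 and 3.89 times under its highest class, and most of its other neighbours were not told apart by their intervals.

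Among the 5 classes compared, Myb alone was not always lowest in erythroid-like cells. It was lowest in megakaryocyte-like cells in both fusion libraries, level with erythroid-like cells in the Skida1-deleted library, and lowest in erythroid-like cells in Control. Its highest of the 5 classes was basophil-mast-like in the fusion libraries (459 CPM in the Skida1-deleted library and 496 CPM in MLL-ENL) and granulocyte progenitor-like in Control (585 CPM). Control thus spanned a narrower range of Myb, 1.55 times from top to bottom, than the Skida1-deleted library at 2.37 and MLL-ENL at 2.41. Erg was highest in HSPC-like cells and Fli1 in megakaryocyte-like cells in all 3 libraries, although the 2 proteins are close relatives. Fli1 had 135, 126 and 137 CPM in megakaryocyte-like cells of the Skida1-deleted, MLL-ENL and Control libraries, 2.08, 1.9 and 2.27 times the HSPC-like level. Erg was nearly absent from erythroid-like cells, with 1.18, 1.78 and 2.07 CPM, and Fli1 was low there with 5.7, 7.69 and 6.23 CPM. Etv6 was highest in HSPC-like cells in all 3 libraries and kept 17.2, 16.5 and 16.8 CPM in erythroid-like cells, level between libraries. Outside these 5 classes, eosinophil-like cells had more Myb than any of them, 1067 [959–1183], 1246 [1105–1400] and 1008 [898–1128] CPM in 31, 23 and 20 cells of the Skida1-deleted, MLL-ENL and Control libraries. B-lineage-like cells, also a class with too few cells to compare between groups, had still more Erg than HSPC-like cells, 179, 152 and 179 CPM from 65, 77 and 55 UMIs in 98, 90 and 44 cells.

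The antibody tags, which took no part in making the classes, gave a second readout within HSPC-like cells. In each library the 25% of HSPC-like cells with the highest share of a tag were set against the 25% with the lowest, and ratios in parentheses are in the order Skida1-deleted, MLL-ENL and Control. Runx2 and Myb moved in opposite directions along Sca1, a surface protein of stem and multipotent cells. The Sca1-high over Sca1-low ratios of CPM were 1.62, 1.59 and 1.71 for Runx2 and 0.537, 0.608 and 0.615 for Myb in the Skida1-deleted, MLL-ENL and Control libraries. Runx1 was also lower in Sca1-high cells, with 0.684, 0.683 and 0.74. Myb was higher in cells high for CD117, the KIT receptor itself (1.59, 1.31 and 1.45). CD201, CD135, CD127, CD150 and CD41 had medians of 4 to 11 counts per HSPC-like cell, against 2 to 15 counts in erythroid-like cells, and the CD16/32 medians of 20, 27 and 36 counts stood beside 13, 19 and 22 in erythroid-like cells of the Skida1-deleted, MLL-ENL and Control libraries. Signal was not told apart from background for these 6 tags in HSPC-like cells, and no ratio is read along them. Sca1 had medians of 194, 245 and 385 counts, against 14, 21 and 39 in erythroid-like cells.

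Runx3 followed CD48, a protein gained when stem cells turn into multipotent progenitors. Its CPM in CD48-high and CD48-low HSPC-like cells was 132 and 99.2 in the Skida1-deleted library, 113 and 71.8 in MLL-ENL, and 58.9 and 30 in Control, ratios of 1.33, 1.58 and 1.96. Along Sca1 the Runx3 ratios were 0.9, 0.701 and 0.583, under 1 where those of Runx2 were above it. Runx1 was higher in CD48-high cells as well (1.31, 1.36 and 1.27), as was Myb (1.35, 1.33 and 1.34), whereas Runx2 was lower (0.771, 0.744 and 0.756). Erg was higher in Sca1-high cells (1.34, 1.19 and 1.98). With strata of 10% the Runx3 ratios for CD48 were 1.7, 2.88 and 4.19 and the Myb ratios for Sca1 0.472, 0.603 and 0.593, while the Runx2 ratios for CD48 came to 0.895, 0.965 and 1.08. The strata differed in depth, with Sca1-high medians of 5808, 6386 and 10437 UMIs against 12822, 14888 and 21007 UMIs in Sca1-low cells, and CD48 alone held 69%, 68.4% and 67% of the tag counts, so that shares of the other tags fall where CD48 is high. The part of depth in these ratios was not tested.

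**Figure D3:**
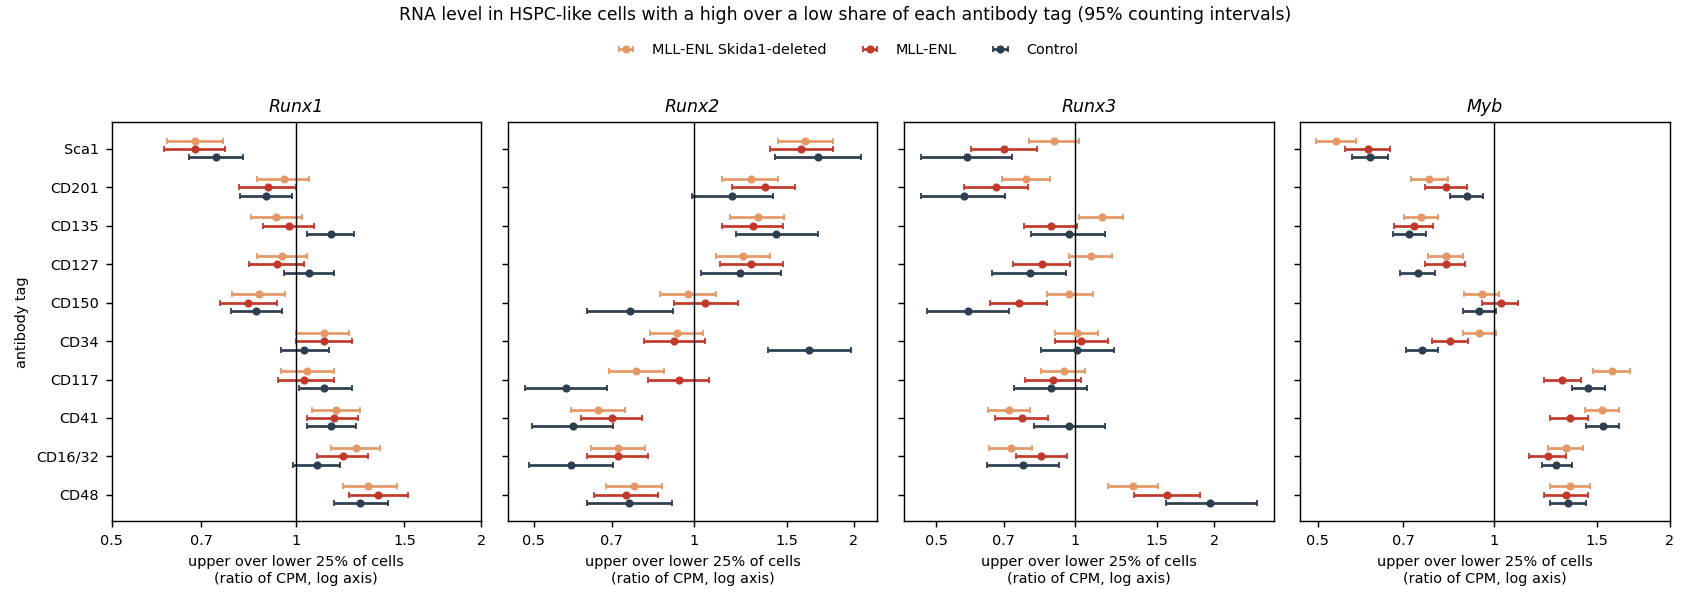
Ratio of CPM (log axis) between HSPC-like cells in the upper and the lower 25% of each antibody tag's share, for 4 genes in the Skida1-deleted, MLL-ENL and Control libraries, with 95% counting intervals. Runx2 lies above 1 for Sca1 and below 1 for CD48 in all 3 libraries, Myb lies the other way, and Runx3 is highest for CD48. CD201, CD135, CD127, CD150, CD41 and CD16/32 held few counts over background in these cells.

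Because MYB falls as red cells mature, erythroid-like cells were also compared in 4 bins of the share of their UMIs from Car2, a carbonic anhydrase of red cell precursors, with edges at 0.0552%, 0.0955% and 0.147%, the quartiles of Control. Myb was lower at higher Car2 in every library. Over bins 1 to 4 it had 267, 226, 176 and 119 CPM in the Skida1-deleted library, 306, 265, 206 and 134 CPM in MLL-ENL and 549, 437, 348 and 218 CPM in Control. In each bin MLL-ENL was lower than Control, 1.8, 1.65, 1.69 and 1.62 times from bin 1 to bin 4, about as much as in all erythroid-like cells, and the Skida1-deleted over MLL-ENL ratios were 0.874, 0.853, 0.855 and 0.887. Runx1 was lower along the bins too and higher in MLL-ENL at each one, with 108, 93, 80.7 and 67.9 CPM, against 77.8, 60.5, 45.3 and 41.9 CPM in Control, ratios of 1.38, 1.54, 1.78 and 1.62. For Runx3 the MLL-ENL over Control ratio widened with the Car2 share, 1.01, 1.1, 1.25 and 1.39. Fli1 was low in all bins, with 15.6, 8.98, 5.71 and 2.74 CPM in MLL-ENL, against 16.6, 7.24, 2.93 and 1.11 CPM in Control. The ratio was 0.937 [0.817–1.08] in bin 1 and 2.46 [1.67–3.72] in bin 4. The Skida1-deleted library had 13.1, 5.91, 3.28 and 1.2 CPM of Fli1, so in bin 4 it lay near Control and only MLL-ENL stood above. Cbfb had MLL-ENL over Control ratios of 0.673 [0.592–0.764] and 0.707 [0.612–0.816] in bins 1 and 2. In bins 3 and 4 they were 1.13 [0.953–1.35] and 1.17 [0.914–1.49], so Cbfb was lower in the first 2 bins only. The median Car2 share of erythroid-like cells was 0.091%, 0.0993% and 0.0955% in the Skida1-deleted, MLL-ENL and Control libraries. These medians were close, so the bins do not correct for the lower erythroid marker sums of the fusion libraries. A low-depth cluster, number 2, held 2499 erythroid-like cells of MLL-ENL. Leaving out such clusters is among the alternatives whose range of Myb ratios is stated above, and its own ratio is not given here.

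**Figure D4:**
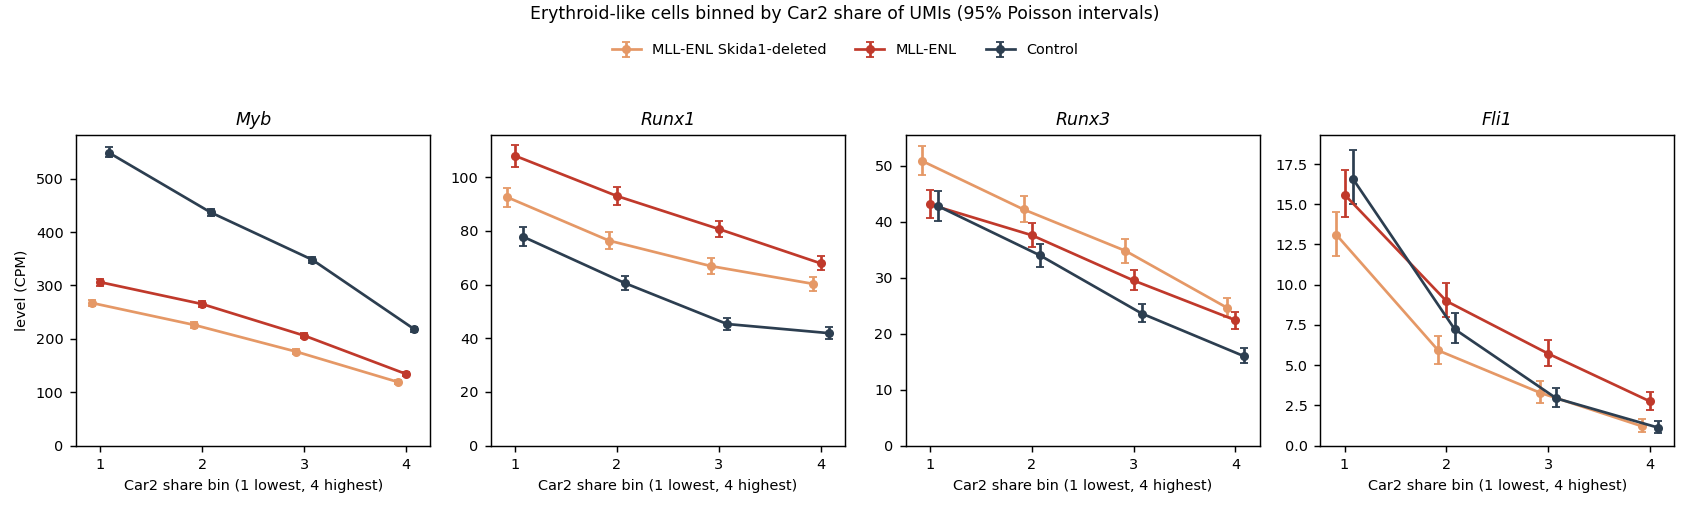
Level in CPM of Myb, Runx1, Runx3 and Fli1 in erythroid-like cells binned by their Car2 share of UMIs, for the Skida1-deleted, MLL-ENL and Control libraries, with 95% Poisson intervals. All 4 genes are lower in bin 4 than in bin 1. Control lies highest for Myb and lowest for Runx1 in every bin.

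Across the 15 sums of library and class, which share cells, depth and preparation, the likeness of the genes is given as a description. Erg and Etv6 were most alike (Pearson r of log2(CPM + 1) of 0.98), followed by Runx2 and Erg at 0.96, and Runx2 and Etv6 and Fli1 and Etv6 at 0.93 each. Runx2 and Runx3 were at 0.80, and Myb stood apart, between -0.07 (with Runx3) and 0.59 (with Cbfb). Among 6849 genes the closest to Runx2 were Ptpn18 at 0.986, Dnmt3a, the de novo DNA methyltransferase, at 0.982 and Elmo1 at 0.981. The closest to Runx1 were Klf7 at 0.962, Slc22a3 at 0.951 and Pafah2 at 0.949, and to Runx3 Snx30 at 0.967, Uba7 at 0.962 and Chka at 0.958. Cbfb was closest to Cryzl2 at 0.978, Ccdc12 at 0.973 and Ggh at 0.970. Myb was closest to the lysosomal enzyme gene Neu1 at 0.942, Tbc1d2b at 0.922 and Atp6v0b at 0.901. Erg was closest to Inpp1 and Cd93, a surface protein of endothelial and early blood cells, both at 0.987, and Cxxc5 at 0.985. Fli1 was closest to the platelet signalling genes Lcp2 at 0.987 and Plek at 0.984 and to Sla at 0.983, and Etv6 to Erg at 0.980 and Inpp1 and Cxxc5 at 0.979. Plek is itself a megakaryocyte marker used to name the classes, so its likeness to Fli1 is not independent of them.

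Genes around these factors were followed through lists in HSPC-like cells. Of 22 other ETS factors 12 were measured, and 0 were past 1.5-fold between MLL-ENL and Control (24.3% of all genes were), with a median log2 ratio of 0.26 against -0.10 over all genes. Spi1, the PU.1 gene of myeloid and B cells, had 193 CPM in MLL-ENL against 280 CPM in Control, 1.45 times lower, and Elk4 had 55 CPM in MLL-ENL against 38.9 CPM in Control, a ratio of 1.41. Of 17 RUNX partners and corepressors 15 were measured, 1 was higher and 2 were lower. Tle4, a Groucho corepressor, was higher with 66.2 CPM in MLL-ENL against 41.9 CPM in Control (1.58-fold), while Prmt1, an arginine methyltransferase that acts on RUNX1, had 235 CPM in MLL-ENL against 372 CPM in Control (1.58 times lower) and Tle1 5.98 CPM in MLL-ENL against 9.06 CPM in Control (1.51 times lower). Of the 10 MYB family members and cofactors 8 were measured and 2 were lower, Lin37 with 16.1 CPM in MLL-ENL against 28.1 CPM in Control and Taf12 with 23.6 CPM in MLL-ENL against 38.1 CPM in Control. The coactivator Crebbp had 106 CPM in MLL-ENL against 86.7 CPM in Control, a ratio of 1.22.

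ERG, FLI1 and RUNX1 bind with TAL1, LYL1, LMO2 and GATA2 in blood stem cells, a group known as the heptad. Of 9 heptad and LIM complex partners, all 9 measured, 1 was lower between MLL-ENL and Control, Lyl1 with 48.2 CPM in MLL-ENL against 100 CPM in Control (2.08 times lower), and Gata2 had 62.7 CPM in MLL-ENL against 48.2 CPM in Control, a ratio of 1.3. Of 9 genes known as MYB targets 4 were lower in MLL-ENL and 0 higher, beside 15.5% lower and 8.84% higher among all measured genes. They were Gfi1, Ccnb1, Myc and Prtn3. Gfi1, the gene of a transcriptional repressor, had 14.4 CPM in MLL-ENL against 28.2 CPM in Control. The cyclin Ccnb1 had 29.5 CPM in MLL-ENL against 56.1 CPM in Control. Myc had 78.6 CPM in MLL-ENL against 125 CPM in Control, and the granule protease Prtn3 656 CPM in MLL-ENL against 1018 CPM in Control. Ccnb1 also stands in the G2M list, and Mpo, Elane, Prtn3 and Gfi1 in the granulocyte marker list, which summed to 1920, 1759 and 2497 CPM among HSPC-like cells of the Skida1-deleted, MLL-ENL and Control libraries. Of 15 RUNX targets 13 were measured and 4 were lower, beside the same 15.5% of all genes, Cebpa with 15.8 CPM in MLL-ENL against 32 CPM in Control, Gfi1, Gfi1b with 6.72 CPM in MLL-ENL against 12.8 CPM in Control and Csf1r with 5.01 CPM in MLL-ENL against 9.46 CPM in Control. The median log2 ratio was -0.20 for both target lists, against -0.10 over all genes. In megakaryocyte-like cells, where Myb was lowest relative to Control, 6 of 8 measured MYB targets were lower and 0 higher, beside 17.4% lower and 6.75% higher among all genes, with a median of -0.93 against -0.16 over all genes. Beside them 14 of 20 G2M genes were lower, and the granulocyte markers summed to 144, 139 and 313 CPM in the Skida1-deleted, MLL-ENL and Control libraries. The part of these shifts in the target counts was not tested. In erythroid-like cells, where Myb was also lower, 0 of 8 were lower and 1 was higher, beside 12.2% lower and 5.23% higher among all genes, with a median of 0.04 against -0.14.

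Between the Skida1-deleted library and MLL-ENL in HSPC-like cells the lists of factors, partners and targets were nearly level. The 20 G2M genes summed to 1788 CPM in the Skida1-deleted library against 1458 CPM in MLL-ENL. Their median log2 ratio was 0.25, against -0.02 over all genes. Of these 20 genes 1 was higher by 1.5-fold or more (Nusap1, 1.58-fold), beside 3.19% of all measured genes past it in either direction. Elane, the neutrophil elastase gene that stands in both target lists, was higher with 65.5 CPM in the Skida1-deleted library against 32.2 CPM in MLL-ENL (2.04-fold), and Myc was lower with 50.5 CPM in the Skida1-deleted library against 78.6 CPM in MLL-ENL (1.55 times). Of the 15 measured RUNX partners 1 was past 1.5-fold, beside 3.19% of all measured genes. It was Tle1, with 3.95 CPM in the Skida1-deleted library against 5.98 CPM in MLL-ENL (1.52 times lower, from 84 and 105 UMIs). Kit had 279 CPM in the Skida1-deleted library against 212 CPM in MLL-ENL, a ratio of 1.32, and Ldb1, the adaptor of LIM complexes, 48.8 CPM in the Skida1-deleted library against 66.9 CPM in MLL-ENL, 1.37 times lower. In erythroid-like cells 5 of 8 measured MYB targets were lower in the Skida1-deleted library, with a median log2 ratio of -0.94 against -0.04 over all genes, where 2.14% were past 1.5-fold. Granulocyte markers, which include the MYB targets Mpo, Elane, Prtn3 and Gfi1, were low in erythroid-like cells. They summed to 26.8, 84.3 and 89.9 CPM there in the Skida1-deleted, MLL-ENL and Control libraries. The low-depth cluster 2 of this class held 2499 cells of MLL-ENL and 70 of the Skida1-deleted library. The part of these differences in the target count was not tested.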

How the data were processed

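RNA and 10 antibody tags were read in 3 libraries of sorted liver progenitors. The deposited files hold raw UMI counts per gene, tag and cell barcode, with no normalization by the authors. Per the file headers they came from Cell Ranger 6.1.2, and per the submitters' processing notes from version 6.0.1 on mm10. Per the labels' protocols the chemistry was 10x 3′ v3.1. The barcodes listed numbered 10543, 11910 and 6091 and the gene UMIs 207395090, 198773992 and 180656900 in the Skida1-deleted, MLL-ENL and Control libraries.

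Cells with at least 1000 UMIs, 500 genes and under 10% mitochondrial UMIs were kept (9962, 11148 and 5777). Scrublet in scanpy 1.11.5 called 618, 341 and 383 doublets, and the highest scores were removed at 0.8% per 1000 cells (794, 994 and 267). The libraries were clustered together (Leiden, resolution 1.0, 30 principal components, 2000 variable genes, 15 neighbours) without integration. The variable genes held none of the 8 genes and none of the ETS, RUNX partner, MYB family and heptad lists. Clusters were named by whichever marker list had most genes in the cluster's top 50, given 3 or more markers raised 1.5-fold. This naming rule was settled after clusters had been seen. Cluster 8 stayed unnamed (675, 566 and 10 cells). A class was compared if each library held 100 cells of it or more.

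UMIs were summed per class and library and scaled to CPM. Levels have exact Poisson intervals, folds exact conditional binomial intervals and shares exact Clopper-Pearson ones. A gene was measured at 5 CPM or more in either library and 20 UMIs or more over both. List medians use log2(CPM + 1). The named genes are the 8 factors, up to 4 genes of each list with the largest absolute log2 ratio in HSPC-like cells for each comparison, the 3 genes most like each factor, and the checks of the labels. The factors, lists and tests were chosen with earlier results of these data known. The fold rule was tested on simulated counts. Tag strata took cells with at least 50 tag counts. Alternatives changed the cell filter, doublets, clustering, classes, depth, scaling and cell cycle. The Car2 bins and the removal of low-depth clusters were added after seeing the data.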

Additional observations from a re-analysis of the deposited data

Results flagged for a closer look

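Runx1 and Erg each had ratios of MLL-ENL over Control that lay on opposite sides of 1 in different classes, with intervals that did not reach 1. Runx1 was 1.72 in granulocyte progenitor-like cells and 0.818 in basophil-mast-like cells. Erg was 1.73 in basophil-mast-like cells and 0.711 in megakaryocyte-like cells. With 1 library a group these differences between classes were not tested, and the first Runx1 value and both Erg values changed side under at least 1 of the alternatives.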

How the results depend on the processing

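Each group had 1 library, so no replicate could be left out, and depth limits what low genes can show. No paired analysis was possible because each group has 1 sample. Of 960 recomputed folds of these genes 698 stayed within the counting interval of the value reported, 258 moved outside it and 4 that were past 1.5-fold changed side. Of 272 recomputed counts 235 were within 1.5 times and 37 were not. The cause of each move was not tested. Runx2 and Runx3 in HSPC-like cells stayed 1.5-fold or more higher in MLL-ENL than in Control under all 13 alternatives, and Myb in erythroid-like cells 1.5 times or more lower under all 12.

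Those 4 folds, MLL-ENL over Control, were Cbfb at 1.01 and Erg at 0.699 in granulocyte progenitor-like cells under the strict cell filter (2000 UMIs, 1000 genes, under 5% mitochondrial), Runx1 at 0.953 there at resolution 0.5, and Erg at 0.666 in basophil-mast-like cells with classes from marker scores per cell. With tag strata of 10% in all kept cells, Erg came to 1.12 for CD127 in MLL-ENL and 1.03 for CD150 in Control.

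Under the main setting 30.7% of all measured genes were past 1.5-fold, MLL-ENL over Control, in granulocyte progenitor-like cells and 24.2% in megakaryocyte-like cells. The share was 17.5% in erythroid-like and 27.9% in basophil-mast-like cells. Shares under the alternatives are not given here, so the counts below show only how far they moved. Counts of these genes past 1.5-fold, MLL-ENL over Control, moved as follows. In granulocyte progenitor-like cells 0 were lower under the strict filter, resolution 2.0, thinning to 3000 UMIs, size factors and totals without globin, mitochondrial and ribosomal protein genes. There 1 was higher at resolution 0.5, and 2 with marker scores or with classes of the nearest Control cells. In megakaryocyte-like cells 1 was higher under the strict filter, resolution 0.5 or marker scores, and 2 were lower under the strict filter or resolution 0.5 and 0 at resolution 2.0. In erythroid-like cells 2 were higher under the strict filter, nearest Control cells or thinning, 0 with no doublets removed, resolution 2.0 or clustering without cell cycle genes, and 3 were lower in G1 cells. In basophil-mast-like cells marker scores gave 0 higher and 4 lower, and thinning 1 higher and 1 lower. For Skida1-deleted over MLL-ENL, 2 were lower in granulocyte progenitor-like cells under the strict filter and 1 with G1 cells alone, and in erythroid-like cells 1 without cell cycle genes, 1 with thinning and 3 with G1 cells alone. With no minimum CPM the list counts in HSPC-like cells were, for MLL-ENL over Control, 2 higher (other ETS), 3 higher (RUNX partners) and 1 higher (RUNX targets), and for Skida1-deleted over MLL-ENL 2 lower (other ETS), 2 lower (RUNX partners), 1 lower (MYB family) and 1 lower (RUNX targets). Granulocyte progenitor-like cells in G1 (280 in MLL-ENL and 28 in Control) and basophil-mast-like cells under the strict filter (253 and 42) were not run for MLL-ENL over Control, with under 50 cells.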

Other observations

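Across all kept cells, whose makeup differs between libraries, the tags tracked the classes. The ratio of the upper over the lower 25% of cells for CD34 was 10.7, 7.68 and 54.3 for Runx2 and 7.4, 5.31 and 13.5 for Erg in the Skida1-deleted, MLL-ENL and Control libraries. For CD41 that ratio was 5.95, 5.38 and 3.39 for Fli1. Within HSPC-like cells the CD34 ratio of Runx2 was 0.929, 0.917 and 1.65, above 1 in Control only, where the median CD34 tag count was 120 per cell, against 36 in the Skida1-deleted library and 33 in MLL-ENL.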
